A study of Homo sapiens with 10 samples.

Results

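The tripartite motif (TRIM) genes encode a family of proteins most of which are ubiquitin ligases, and their RNA was followed here in human cell lines that expressed the synthetic transcription factor PcTF. Members were the rows whose symbol is TRIM, a number and at most 1 further letter. The rule found 69 of the 23245 genes in each of the 4 deposited expression tables, and it used no measured value. Of the 69, 10 were listed as interferon-inducible and 20 as constitutive, both from general knowledge of the family. These lists were drawn up with earlier results of these data known. The other 39 were grouped by tissue or left unlisted.

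A TRIM protein carries a RING finger, which binds a ubiquitin-charged E2 enzyme, followed by B-box zinc fingers and a coiled coil through which the protein pairs. The C-terminal end differs between subfamilies and picks the target: a SPRY domain in most antiviral members, a PHD finger and bromodomain in the chromatin regulators TRIM24, TRIM28 and TRIM33, and NHL repeats in TRIM2, TRIM3 and TRIM32. Type I interferon is known to raise the transcription of a subset that includes TRIM5, TRIM21, TRIM22 and TRIM25.

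PcTF joins the histone-binding chromodomain of CBX8 to mCherry and the VP64 activator. The series holds 10 libraries, of which 9 were used. U-2 OS osteosarcoma and SK-N-SH neuroblastoma cells were collected up to 96 h, and K562 leukemia cells up to 48 h, after transfection with 2 μg of a plasmid that expresses PcTF constitutively in these lines. Each had 1 mock library from cells that received the vehicle without plasmid, so delivery of plasmid DNA and expression of PcTF cannot be told apart in these comparisons. The last table set a pool of 3 PcTF libraries, the transfected U-2 OS library and 2 from the doxycycline-inducible stable line U2OS-PcTF, against 1 library of U2OS-dTF. This make-up of the pool is the one the labels give, whereas the study's methods describe replicates of the stable lines. U2OS-dTF is a stable line whose fusion protein lacks the chromodomain, and both stable lines received 1 μg/mL doxycycline for 96 h. With 1 library per condition there is no replicate check and no test between conditions, and all values below are FPKM (fragments per kilobase of transcript, scaled to the mapped reads of the library), ratios of FPKM, and intervals that cover counting error only.

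Reads per library, recovered from the steps of low values, ranged from about 4280000 to 7400000. CBX8 reads, part of which come from the PcTF transgene, followed the labels. They stood at 0.610 FPKM in mock and 6.43 in PcTF-transfected U-2 OS cells, at 0.287 and 8.85 in SK-N-SH cells, and at 1.59 and 14.3 in K562 cells. HBG1 and GATA1 (erythroid) were above 0 in both K562 libraries and at 0 in the mock and transfected libraries of the adherent lines. They stood at 1567 and 55.1 FPKM in the K562 mock and at 7199 and 114 with PcTF, so the 2 K562 libraries differed in these markers. PHOX2A and DBH (noradrenergic neurons) stood at 34.3 and 21.8 FPKM in the SK-N-SH mock and at 0 in the other mock libraries. The osteoblast genes SP7 and BGLAP were below 1 FPKM in both U-2 OS libraries, and RUNX2 was no higher in the U-2 OS mock, at 7.30 FPKM, than in the K562 mock, at 9.13 FPKM. With PcTF, RUNX2 was at 7.86 FPKM in U-2 OS and 0.128 in K562.

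Promoter sequences are given first, because the interferon-inducible list and the constitutive list differed in them. RefSeq windows of 300 bases, 250 before and 50 after the annotated start, were available for 52 of the 69 genes, with none for TRIM22. The core of the interferon-stimulated response element, GAAANNGAAA searched on both strands, occurred in 3.57% of 35116 windows of this length. It occurred in 6 of the 9 inducible genes with a window (66.7%), in 1 of 13 constitutive genes (7.69%) and in 3 of the 30 others. The inducible genes with a match were TRIM5, TRIM14, TRIM21, TRIM26, TRIM34 and TRIM69, and those without were TRIM25, TRIM38 and TRIM56. The core of the gamma-activated site, TTCNNNGAA, occurred in 7.66% of all windows and in none of the 9 inducible genes. The sequences below were placed in GRCh37 by an exact match of the RefSeq window, whose table is on GRCh38.p14. They run 5′ to 3′ on the strand of the gene and give the 120 bases before the start, or 30 bases past the start for TRIM21, with matches to the first motif in capitals. Matches to the opposite strand read as the reverse complement. They show where the element lies in 5 of the 6 inducible genes with a match and in TRIM44, the constitutive gene that carries it.
TRIM5 (chr11:5706305-5706424, minus strand): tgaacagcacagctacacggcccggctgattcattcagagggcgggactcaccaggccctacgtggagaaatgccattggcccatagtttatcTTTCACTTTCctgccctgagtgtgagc
TRIM14 (chr9:100881505-100881624, minus strand): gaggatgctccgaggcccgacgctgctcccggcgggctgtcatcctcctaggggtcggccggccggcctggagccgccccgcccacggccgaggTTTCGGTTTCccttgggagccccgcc
TRIM21 (chr11:4414894-4414923, minus strand): tctgagcgGAAACTGAAAGTGAAAtaggga
TRIM34 (chr11:5646111-5646230, plus strand): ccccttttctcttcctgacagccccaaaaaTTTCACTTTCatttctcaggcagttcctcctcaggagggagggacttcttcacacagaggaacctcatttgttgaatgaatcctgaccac
TRIM69 (chr15:45028606-45028725, plus strand): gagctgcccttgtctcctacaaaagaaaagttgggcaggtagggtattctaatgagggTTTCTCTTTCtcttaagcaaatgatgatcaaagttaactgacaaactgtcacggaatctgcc
TRIM44 (chr11:35684203-35684322, plus strand): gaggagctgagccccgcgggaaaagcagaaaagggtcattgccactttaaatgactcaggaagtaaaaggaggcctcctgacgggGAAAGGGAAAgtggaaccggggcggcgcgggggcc

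The leftmost base of the match lay 27 bases before the start in TRIM5, 26 in TRIM14, 90 in TRIM34, 62 in TRIM69 and 35 in TRIM44. TRIM21 held 2 overlapping matches, which began at bases 18 and 24 past its start. A match is a description of these letters and says nothing of binding by a factor. Among the genes with a match, TRIM14 and TRIM21 were more than 2-fold higher with PcTF in both adherent lines, and TRIM5 and TRIM34 in neither. Among the inducible genes without one, TRIM25 was more than 2-fold higher in both adherent lines, TRIM56 in U-2 OS and TRIM38 in SK-N-SH. TRIM44 stood between 27.9 and 39.5 FPKM in every column.

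Of the 69 genes, 55 were above 0 in at least 1 of the 8 value columns and 42 reached 1 FPKM in at least 1. At 1 FPKM or more in all 8 columns were 19. Another 14 were listed at 0 throughout. Of these 14, 7 genes, TRIM10, TRIM15, TRIM26, TRIM27, TRIM31, TRIM39 and TRIM40, had a deposited interval on an alternate haplotype of chromosome 6. Of 210 genes with such intervals 189 (90.0%) were at 0 in every column, against 14.3% of the other genes, and the housekeeping genes TUBB, DDX39B, CSNK2B and GNL1 were among them. The values of 0 for these 7 genes, among them the interferon-inducible TRIM26 and the constitutive TRIM27 and TRIM39, are therefore not read as absence of RNA. The other 7 were TRIM42, TRIM60, TRIM64, TRIM64B, TRIM64C, TRIM72 and TRIM77P, most of them germline genes or primate duplicates. A further 13 genes were above 0 but below 1 FPKM in every column, with TRIM17 the highest at 0.979 FPKM.

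TRIM24, TRIM33 and TRIM44 were among the 5 highest members in each of the 3 mock libraries. In U-2 OS the 5 highest genes were TRIM33 (65.9 FPKM), TRIM37 (41.0), TRIM44 (35.4), TRIM24 (32.9) and TRIM5 (29.1), which held 50.1% of the summed FPKM of the family. In SK-N-SH they were TRIM24 (73.6), TRIM2 (57.8), TRIM33 (34.2), TRIM44 (29.2) and TRIM37 (21.2), with 59.5% of the sum. In K562 they were TRIM24 (165), TRIM28 (93.9), TRIM33 (44.4), TRIM25 (39.3) and TRIM44 (30.6), with 64.1%. TRIM24, TRIM28 and TRIM33 are chromatin-bound co-regulators of transcription, TRIM44 is an atypical member without a RING finger, and TRIM37 acts at centrosomes. The tables were normalised separately, so the order between lines is a description. TRIM28, the KAP1 co-repressor of retroelements, was at 9.51 FPKM in U-2 OS, and its SK-N-SH value of 11.9 was likewise well below the K562 level. TRIM2, a neuronal ligase, was at 23.1 FPKM in U-2 OS and 0.0325 in K562.

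**Figure D1:**
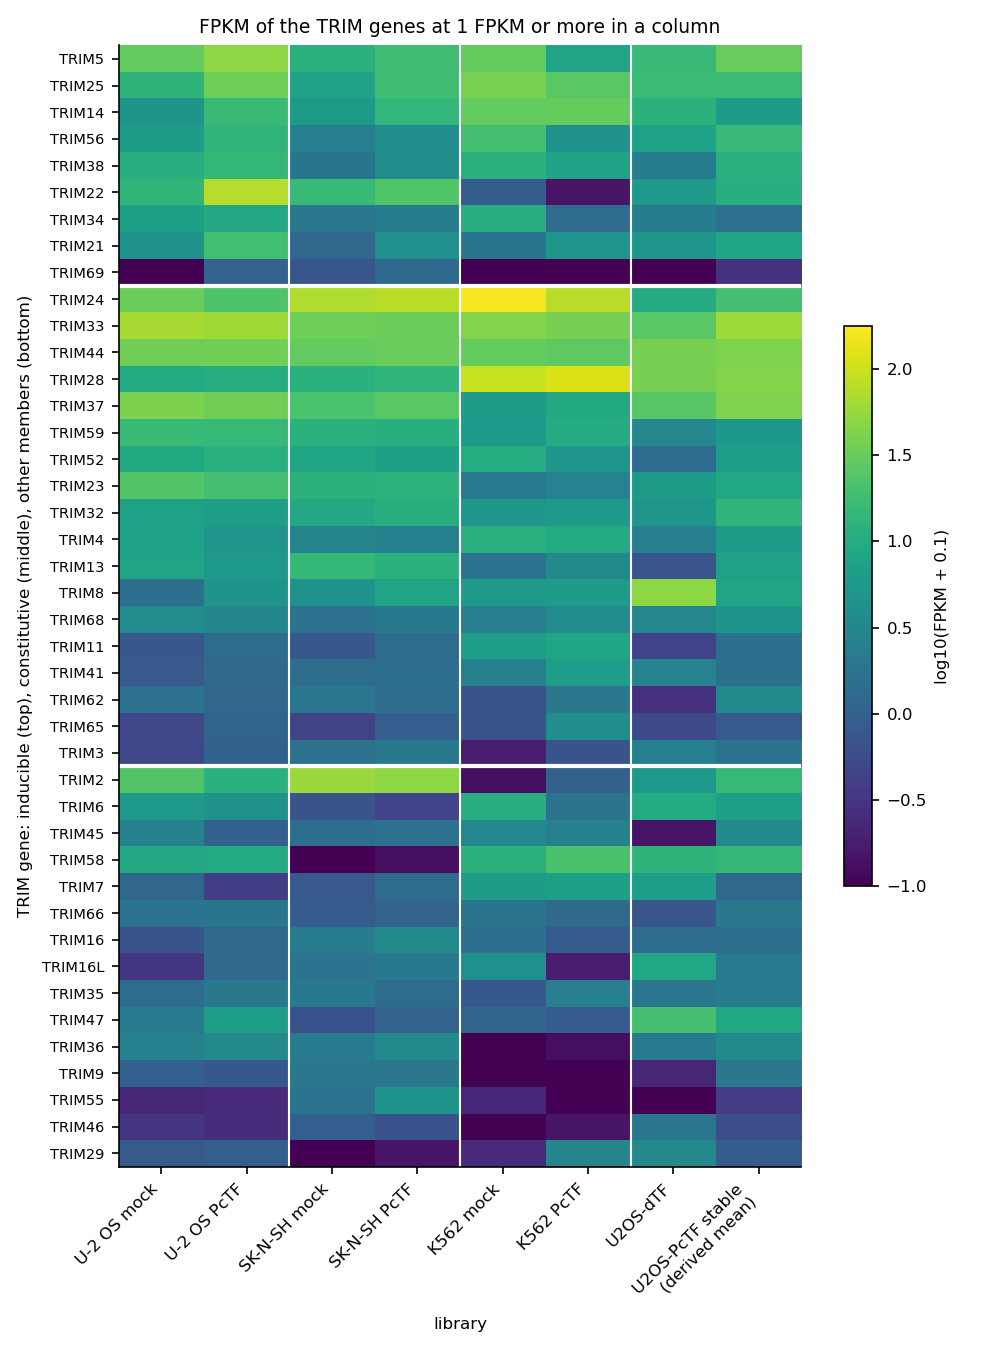
Heat map of log10(FPKM + 0.1) for the 42 TRIM genes with 1 FPKM or more in at least 1 deposited column (rows: inducible, constitutive and other members, each ordered by mean level in the mock libraries) in 7 single libraries and the derived mean of the 2 stable U2OS-PcTF libraries (columns). TRIM24, TRIM33 and TRIM44 are bright in all 3 lines, TRIM22 is brightest in transfected U-2 OS and darkest in K562, and TRIM8 is brightest in U2OS-dTF.

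In U-2 OS, 5 of 8 interferon-inducible TRIM genes were higher with PcTF, and 2 of 17 constitutive genes were. Counts cover genes with 1 FPKM or more in either library, and higher or lower means a ratio of at least 2-fold after adding 0.1 FPKM to both values. Of 36 such members 9 were higher (25.0%) and 2 were lower (5.56%). Over all 12411 genes passing the same filter, 12.0% were higher and 5.59% lower. None of either list was lower. A low gene can enter these counts only through the library where it is higher. In U-2 OS this held for TRIM65 and TRIM16L (PcTF library) and for TRIM7 and TRIM45 (mock library). The median log2 ratio of the inducible genes was 1.22, with all 8 ratios above 0 and a range of 0.39 to 2.46, and that of the constitutive genes was -0.09. The median over all genes that passed the filter was 0.08. In these bulk samples, a change in a share of the cells and a smaller change in every cell cannot be told apart.

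TRIM22 had the largest ratio in U-2 OS among the members that passed the filter. TRIM22 is an antiviral ligase of the SPRY subfamily, lies at chr11:5710817-5732093 on the plus strand, and was among the polycomb target genes that the study had chosen to follow. The study measured it by qRT-PCR with PcTF and with the fusion protein that lacks the chromodomain. Its text does not name TRIM22 among the genes raised only by PcTF in all or most of its lines. The level of TRIM22 was 13.8 FPKM in mock cells and 76.2 FPKM with PcTF, about 181 and 876 reads. The log2 ratio was 2.46, with a 95% exact binomial counting interval of 2.23 to 2.70. In SK-N-SH the values were 15.4 and 22.9 FPKM, with a log2 ratio of 0.57 (interval 0.33 to 0.82). The gene started at a similar level in both lines, and the difference between the ratios was not tested. In K562 TRIM22 was below 1 FPKM in both libraries, at 0.817 FPKM (10 reads) in mock cells and 0.0467 FPKM (1 read) with PcTF, and the interval of that ratio was wide, from -9.42 to -1.17. In the stable lines it was at 5.49 FPKM in U2OS-dTF and 32.8 in the authors' pool. The mean of the 2 U2OS-PcTF libraries, derived by taking the transfected library out of the pool, was 11.1 FPKM, which lies below the level of mock-transfected U-2 OS. The log2 ratio over U2OS-dTF was thus 2.56 for the pool and 1.01 without the transfected library.

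The other inducible genes spanned a wide range in U-2 OS. TRIM21, the cytosolic antibody receptor, was at 4.51 FPKM in mock cells and 18.1 with PcTF (log2 ratio 1.98, interval 1.48 to 2.57). TRIM14, an adaptor of the MAVS pathway, was at 4.67 and 15.8 FPKM (1.74, interval 1.43 to 2.11). TRIM25, which ubiquitinates the RNA sensor RIG-I, was at 13.0 and 33.6 FPKM (1.37, interval 1.19 to 1.56). These 3 genes were also more than 2-fold higher in SK-N-SH, as given below. TRIM56, a ligase of the STING and TLR3 pathways, was at 6.22 and 13.3 FPKM (1.08, interval 0.90 to 1.29), a ratio that fell to 0.98 when 1 FPKM was added in place of 0.1. The interval of TRIM56 is too narrow, because the transcript length used for its reads exceeded the deposited gene. The remaining 3 inducible genes did not reach 2-fold. TRIM5, the retroviral capsid restriction factor, was at 29.1 and 49.2 FPKM (0.76, interval 0.59 to 0.94), TRIM38, a regulator of innate signalling, at 10.8 and 14.4 FPKM (0.41, interval 0.23 to 0.59), and TRIM34, a close relative of TRIM5, at 6.98 and 9.17 FPKM (0.39, interval -0.08 to 0.88). TRIM69 was listed at 0 in mock cells and at 0.957 FPKM with PcTF, about 6 reads, just under the filter.

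**Figure D2:**
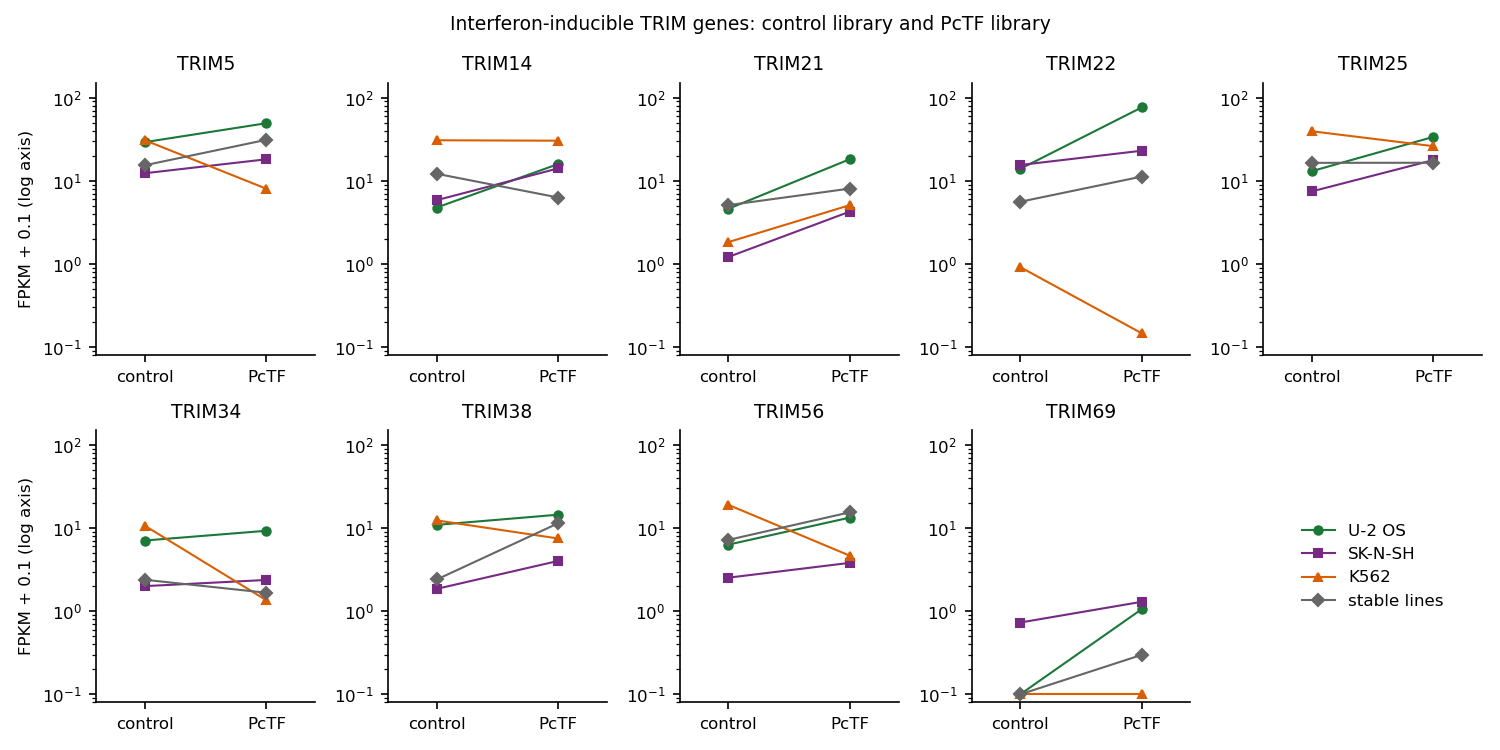
FPKM + 0.1 (log axis) of the 9 interferon-inducible TRIM genes that reached 1 FPKM in a library, in the control library and the PcTF library of each transfected line and of the stable lines (U2OS-dTF and the derived mean of 2 U2OS-PcTF libraries). Lines for the 2 adherent cell lines climb in every panel, whereas in K562 only TRIM21 climbs, from 1.73 to 5.00 FPKM.

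In SK-N-SH, 4 of 9 inducible genes were 2-fold higher with PcTF. Of 35 members 5 were 2-fold higher (14.3%) and none lower, where 5.79% and 2.69% of all 11954 genes were. The median of the 9 inducible genes was 0.83, with all 9 ratios above 0, and that of the 17 constitutive genes, of which none passed 2-fold, was 0.15. The inducible median was the ratio of TRIM69, from about 5 and 12 reads, a gene that passed the filter only through the PcTF library. TRIM21 was at 1.12 FPKM in mock cells and 4.17 with PcTF (log2 ratio 1.81, interval 0.90 to 3.05). TRIM14 was at 5.75 and 14.0 FPKM (1.27, interval 0.99 to 1.58). TRIM25 was at 7.36 and 17.7 FPKM (1.25, interval 1.03 to 1.49). The fourth, TRIM38, was at 1.76 and 3.93 FPKM (1.12, interval 0.79 to 1.54). TRIM38 thus passed 2-fold here and not in U-2 OS, a difference between lines that was not tested. With 1 FPKM added in place of 0.1 its ratio was 0.84, under 2-fold. TRIM5 (12.2 and 18.1 FPKM) and TRIM56 (2.43 and 3.72 FPKM) had ratios of 0.56 and 0.59 whose intervals lay above 0. The intervals of TRIM34 (1.90 and 2.28 FPKM) and TRIM69 (0.631 and 1.20 FPKM) held 0. The fifth called gene was TRIM55, a ligase of the muscle sarcomere, at 1.65 and 4.75 FPKM (1.47, interval 0.82 to 2.31); it was at 0.284 FPKM or less in all other columns and in the derived stable mean.

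In K562, 3 of 7 inducible genes were lower with PcTF and 1 was higher. Here 7 of 34 members were higher (20.6%) and 6 lower (17.6%), beside 28.6% and 11.7% of all 11553 genes. Of the higher members, TRIM29, TRIM35, TRIM62 and TRIM65 passed the filter only through the PcTF library. Of the lower ones, TRIM16L passed it only through the mock. The all-gene median was itself shifted, by 0.28 among genes at 1 FPKM or more in both libraries, and on ratios centred on it the family had 6 higher and 9 lower. After centring, 4 inducible genes were lower and 1 higher, and their median was -0.72, or -1.01 relative to the all-gene shift. The 17 constitutive genes had 4 higher and 1 lower (3 and 2 after centring) and a median of 0.37, or 0.08 relative to the shift.

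Within the inducible list, TRIM34 was at 10.5 FPKM in mock K562 cells and 1.25 with PcTF (log2 ratio -2.97, interval -3.89 to -2.39). TRIM56 was at 18.9 and 4.54 FPKM (-2.03, interval -2.23 to -1.88, again too narrow), the opposite direction to U-2 OS. TRIM5 was at 30.6 and 7.91 FPKM (-1.94, interval -2.21 to -1.71). These 3 genes were thus well expressed in mock K562 cells, above their SK-N-SH mock levels. TRIM38 (12.3 and 7.39 FPKM) and TRIM25 (39.3 and 26.0 FPKM) were at log2 ratios of -0.72 and -0.60 with intervals below 0, and TRIM14 stayed level at 30.6 and 30.2 FPKM. TRIM69 was listed at 0 in both. TRIM21 was the exception, at 1.73 and 5.00 FPKM (1.48, interval 0.68 to 2.48), and was the 1 member of all 69 that was 2-fold higher in all 3 lines; none was 2-fold lower in all 3.

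**Figure D3:**
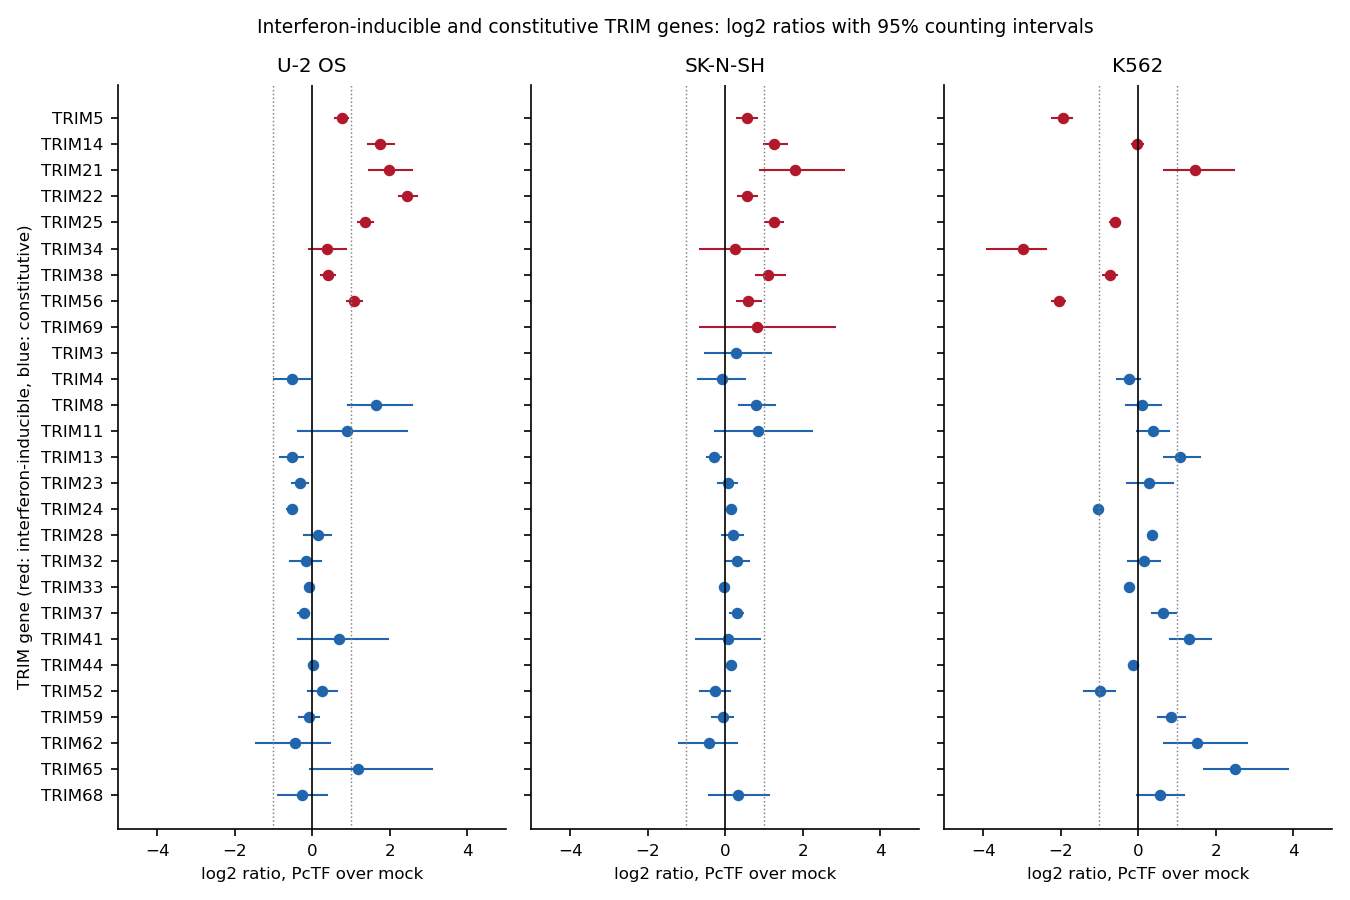
Log2 ratio of PcTF over mock (horizontal axis) with its 95% exact binomial counting interval for interferon-inducible (red) and constitutive (blue) TRIM genes with 1 FPKM or more in either library, 1 panel per line; dotted lines mark 2-fold. Red points lie to the right of 0 in the first panel (8 of 8) and the second (9 of 9) and mostly to its left in K562 (1 of 7 to the right), while blue points cluster near 0 in the first 2 panels.

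The genes TRIM6, TRIM34 and TRIM5, all lower in K562, are neighbours. They share the deposited interval chr11:5617331-5706339, and TRIM22 begins 4478 bases past the end of that interval. TRIM6, a ligase that makes unanchored ubiquitin chains, was at 11.1 and 1.69 FPKM in K562 (log2 ratio -2.64, interval -3.26 to -2.22). The summed FPKM of TRIM5, TRIM6 and TRIM34 was 52.2 in mock K562 cells and 10.9 with PcTF. The same sum was 41.5 and 62.8 FPKM in U-2 OS. For SK-N-SH the sums were 14.7 and 20.7 FPKM. TRIM6 itself stayed below 1 FPKM in SK-N-SH, and its U-2 OS values were 5.43 and 4.43 FPKM, so it did not move with its neighbours in U-2 OS. Exons of TRIM6 and TRIM34 overlap the read-through transcript TRIM6-TRIM34, and reads of the 3 could be assigned to one another. Farther along the arm, TRIM21 (1.30 Mb from TRIM22) and TRIM68 (1.09 Mb), a ligase first described as a co-regulator of the androgen receptor, were higher or within 2-fold in K562, with TRIM68 at 2.37 and 3.56 FPKM.

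**Figure D4:**
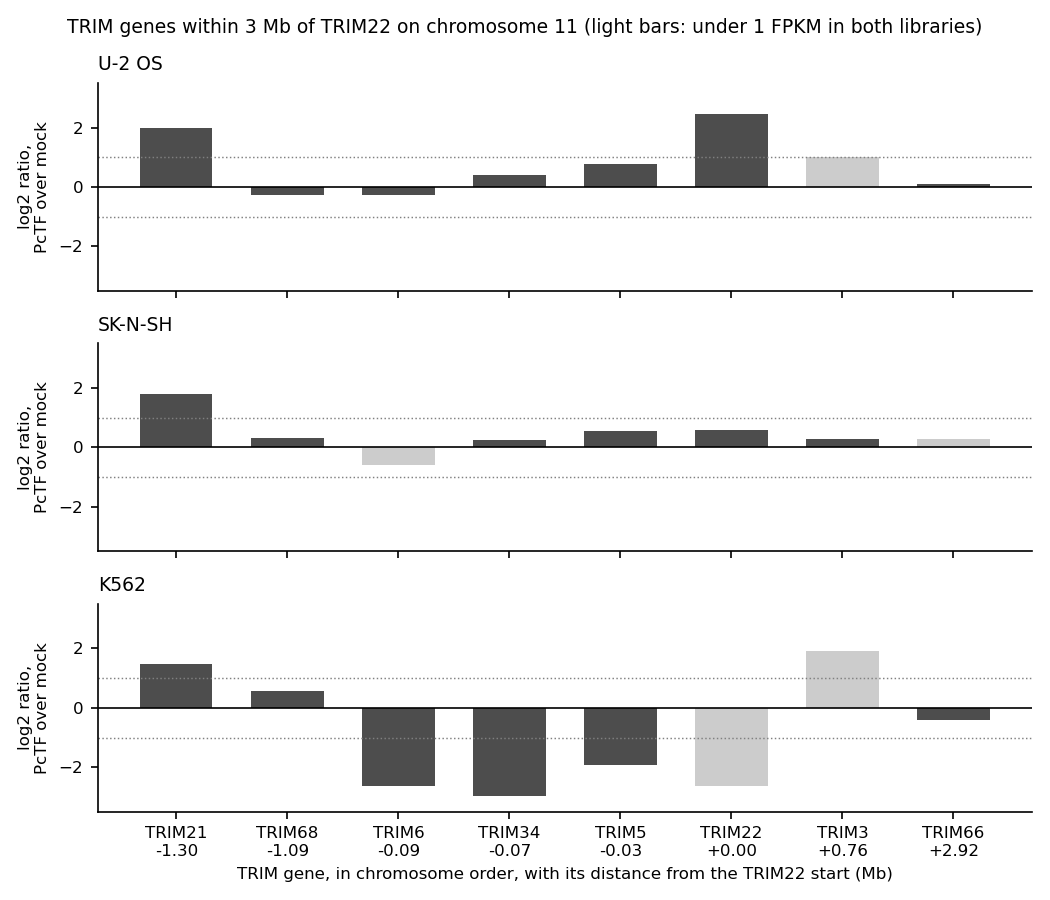
Log2 ratio of PcTF over mock (bars) for the 8 TRIM genes within 3 Mb of TRIM22 on chromosome 11 that reached 1 FPKM in a column, in chromosome order with the distance in Mb from the TRIM22 start; light bars are genes under 1 FPKM in both libraries. In K562 the bars of TRIM6, TRIM34 and TRIM5 point down by more than 2-fold while TRIM21 points up; in U-2 OS TRIM21 and TRIM22 pass 2-fold upward.

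The constitutive genes had small ratios in the adherent lines. U-2 OS held TRIM44 at 35.4 FPKM in mock cells and 35.8 with PcTF (log2 ratio 0.02, interval -0.07 to 0.10), TRIM33, the TIF1-gamma regulator of SMAD signalling, at 65.9 and 62.0, and TRIM28 at 9.51 and 10.5. SK-N-SH held TRIM44 at 29.2 and 32.4 FPKM (0.15, interval 0.06 to 0.23), TRIM33 at 34.2 and 33.5, and TRIM28 at 11.9 and 13.6. Ratios of this size were typical. In SK-N-SH the 17 genes ranged from -0.41 for TRIM62 to 0.83 for TRIM11. In U-2 OS the intervals of 6 of 17 lay below 0 and of 1 above it; TRIM24, a bromodomain reader and p53 ligase, was at 32.9 and 22.7 FPKM (-0.53, interval -0.66 to -0.41). The genes past 2-fold in U-2 OS were TRIM8, a regulator of NF-kappa B signalling, at 1.45 and 4.78 FPKM (1.65, interval 0.92 to 2.58), and TRIM65, a ligase of the RNA sensor MDA5, at 0.388 and 1.01 FPKM, about 6 and 14 reads, with an interval that held 0.

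Other constitutive genes stayed within 2-fold in the adherent lines wherever they passed the filter. U-2 OS held TRIM37 at 41.0 and 35.1 FPKM, TRIM23 (an ARF-domain ligase) at 23.8 and 19.1, TRIM59 at 15.7 and 14.7, TRIM52 at 9.40 and 11.3, TRIM13 (an endoplasmic reticulum ligase) at 7.79 and 5.40, TRIM4 at 7.09 and 4.92, TRIM32 (a ligase mutated in muscular dystrophy) at 7.05 and 6.31, and TRIM68 at 3.58 and 2.96. TRIM11 had values of 0.658 and 1.31 FPKM there, and SK-N-SH had 0.696 and 1.32. TRIM3, an NHL ligase, was below the filter in U-2 OS, at 0.409 and 0.932 FPKM, and stood at 1.54 and 1.87 FPKM in SK-N-SH. TRIM62 and TRIM41 were below 2 FPKM in both U-2 OS libraries. The low genes carried the wide intervals, which a reader can see in the plot of ratios by gene.

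In K562, 5 constitutive genes passed 2-fold, 4 of them upward. Of these 4, TRIM65 and TRIM62 were below 1 FPKM in the mock and passed the filter only through the PcTF library. TRIM24, the highest TRIM gene of the mock, was at 165 FPKM and 80.6 with PcTF (log2 ratio -1.03, interval -1.09 to -0.98). TRIM65 was at 0.606 and 3.92 FPKM (2.51, interval 1.70 to 3.86), TRIM62 at 0.587 and 1.85 FPKM (1.51, interval 0.66 to 2.80), TRIM41 at 2.47 and 6.28 FPKM (1.31, interval 0.83 to 1.87) and TRIM13 at 1.61 and 3.51 FPKM (1.07, interval 0.68 to 1.59). Relative to the all-gene shift TRIM13 was at 0.79 and no longer past 2-fold, and with 1 FPKM added in place of 0.1 neither TRIM13 (0.79) nor TRIM62 (0.85) was. TRIM52, at 10.1 and 5.06 FPKM, was at -0.99, or -1.27 relative to the shift. TRIM28 (93.9 and 121 FPKM), TRIM33 (44.4 and 37.9 FPKM) and TRIM44 (30.6 and 27.9 FPKM) remained high in both libraries.

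Outside both lists, 15 genes reached 1 FPKM. In U-2 OS, TRIM47, a SPRY ligase, was at 2.09 and 6.57 FPKM (log2 ratio 1.61, interval 0.91 to 2.45) and TRIM16L, a short duplicate of TRIM16, at 0.230 and 1.18 FPKM, about 3 and 15 reads (1.96, interval 0.69 to 4.94). The 2 lower genes were TRIM45, at 2.59 and 0.898 FPKM (-1.43, interval -2.53 to -0.58), and TRIM7, a glycogenin-binding ligase, at 1.08 and 0.295 FPKM, about 14 and 3 reads (-1.57, interval -4.47 to -0.19). With 1 FPKM added in place of 0.1, TRIM16L, TRIM45, TRIM7, TRIM56 and TRIM65 no longer passed 2-fold in U-2 OS. TRIM2 was at 23.1 and 11.9 FPKM (-0.96, interval -1.16 to -0.78), just short of 2-fold. In K562 TRIM29, an epithelial gene also called ATDC, was at 0.152 and 2.92 FPKM (3.59, interval 2.33 to 7.32), TRIM35 at 0.690 and 2.35 FPKM (1.63, interval 0.88 to 2.72, or 0.99 with 1 FPKM added), and TRIM16L at 4.20 and 0.0758 FPKM, about 59 and 2 reads (-4.61, interval -8.62 to -3.63). For TRIM16 itself, U-2 OS had 0.607 and 1.12 FPKM, SK-N-SH 2.21 and 3.48 and K562 1.504 and 0.750. TRIM16 and TRIM16L share near-identical sequence, and the sum of their FPKM went from 0.837 to 2.31 with PcTF in U-2 OS, and from 5.71 to 0.826 in K562.

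The remaining genes stayed within 2-fold or below the filter in the 3 lines. TRIM58, an erythroid ligase of late red cell development, was at 12.2 and 20.9 FPKM in K562 (log2 ratio 0.77, interval 0.58 to 0.98) and at a similar 9.05 and 9.61 FPKM in osteosarcoma cells, but was listed at 0 in mock SK-N-SH cells. TRIM9 and TRIM46, both neuronal and microtubule-linked, were highest among the mock libraries in SK-N-SH, at 1.86 and 0.832 FPKM. The stable U-2 OS lines reached similar or higher levels. TRIM9 was at 0.125 FPKM in U2OS-dTF and 1.85 in the derived U2OS-PcTF mean, and TRIM46 at 1.80 and 0.502. TRIM36, a microtubule-associated ligase, was listed at 0 in mock K562 cells. Its values were 2.61 and 3.31 FPKM in U-2 OS, while SK-N-SH had 2.04 and 3.43. TRIM66, a testis-enriched relative of TRIM24, ranged from 0.632 FPKM in U2OS-dTF to 1.82 in the pool, with 1.63 and 1.76 in U-2 OS. Of the muscle list (TRIM54, TRIM55, TRIM63 and TRIM72), none but TRIM55 passed the filter in any line.

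Genes of the interferon pathway were read beside the inducible TRIM genes. In U-2 OS 10 of 16 signalling and response genes that passed the filter were 2-fold higher and none lower, beside 12.0% and 5.59% of all genes. The median log2 ratio of the 16 was 1.12. The 6 with the largest ratios among those that passed were ISG15 (a ubiquitin-like modifier, 4.87 and 95.4 FPKM), OAS1 (a sensor of double-stranded RNA, 11.2 and 125), IFIT1 (an RNA-binding effector, 35.1 and 212), DDX58 (RIG-I, 56.7 and 324), IFIH1 (MDA5, 49.9 and 239) and IRF1 (a transcription factor, 1.59 and 6.68). IFNB1, the gene of interferon beta, was below the filter. It was listed at 0 in mock U-2 OS cells and at 0.734 FPKM with PcTF, and at 0 in both libraries of the other lines. In SK-N-SH 10 of 18 pathway genes were higher and none lower, beside 5.79% and 2.69% of all genes, and the median of the 18 was 1.45. In K562 1 of 15 was higher and 1 lower, beside 28.6% and 11.7% of all genes. The median of the 15 was 0.39, or 0.11 relative to the all-gene shift. In K562 the lower gene, ISG15, was at 46.7 and 14.3 FPKM and the higher gene, MX1, at 0.402 and 2.08. MX1 was at 0.625 and 32.9 FPKM in SK-N-SH and below 1 FPKM in both U-2 OS libraries. The part that interferon played in the TRIM ratios was not tested.

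Partners and relatives of the family were read from lists as well. Of 10 E2 enzymes, UBE2L6, which charges ISG15, was 2-fold higher in U-2 OS (22.3 and 89.0 FPKM), and the other 9 stayed within 2-fold there, among them the general RING partners UBE2D1 (8.43 and 14.3 FPKM) and UBE2D2 (11.5 and 16.3 FPKM). All 10 stayed within 2-fold in SK-N-SH. In K562 UBE2W was 2-fold lower, at 2.64 and 0.993 FPKM, and none was higher. The share of 10% higher in U-2 OS and 10% lower in K562 was near that of all genes, 12.0% and 11.7%. In SK-N-SH 5.79% of all genes were higher and 2.69% lower. Among family genes with other names, PML, which organises nuclear bodies, went from 3.61 to 11.5 FPKM in U-2 OS. Its values were 2.65 and 8.77 FPKM for SK-N-SH, and 17.8 and 12.5 for K562. In U-2 OS, MID1, a microtubule-bound ligase, went from 4.49 to 0.694 FPKM, and its relative MID2 from 5.83 to 6.27. Of the 4 partners of TRIM28, CBX5 (heterochromatin protein 1 alpha) was 2-fold lower in U-2 OS, at 67.8 and 31.1 FPKM, and SETDB1, a histone H3 lysine 9 methyltransferase, was at 8.59 and 11.2 FPKM. SETDB1 was 2-fold higher in K562, at 4.03 and 15.1 FPKM. Among all genes 5.59% were lower in U-2 OS and 28.6% were higher in K562.

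In the comparison with U2OS-dTF the inducible and constitutive lists had similar medians. In the authors' pool over U2OS-dTF 19 of 39 members were higher (48.7%) and 6 lower (15.4%), beside 36.1% and 14.5% of all 13022 genes. The all-gene shift was 0.31, and after centring on it the family had 10 higher and 9 lower. Of 8 inducible genes 5 were higher and none lower (2 and 0 after centring), with a median of 1.10. Of 17 constitutive genes 10 were higher and 1 lower (5 and 3 after centring), with a median of 1.05. The pool contains the transfected U-2 OS library, so this comparison is not independent of the first. For the derived mean of the 2 stable libraries 15 of 39 members were higher and 6 lower (9 and 8 after centring), where 37.0% and 13.5% of all 12919 genes were, and the medians were 0.83 for the inducible and 0.76 for the constitutive genes, before a shift of 0.39.

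Values in the stable lines varied gene by gene. TRIM25 was at 16.3 FPKM in U2OS-dTF and 16.4 in the derived U2OS-PcTF mean, and TRIM14 was at 12.0 and 6.20 FPKM, so these genes, 2-fold higher after transfection, were not higher here. TRIM38 (2.31 and 11.3 FPKM), TRIM5 (15.3 and 31.0 FPKM), TRIM56 (7.11 and 15.4 FPKM) and TRIM22 were 2-fold higher. After centring on the shift of 0.39, TRIM38 alone of these remained 2-fold higher (1.86), with TRIM5 at 0.63, TRIM22 at 0.62 and TRIM56 at 0.71, and the inducible list had 1 higher and 1 lower. With 1 FPKM added in place of 0.1, TRIM5 (0.98) and TRIM22 (0.90) were also under 2-fold. TRIM21 was at 5.00 and 7.97 FPKM, TRIM34 at 2.29 and 1.57, and TRIM69 at 0 and 0.198. Interferon pathway genes were higher in 12 of 17 cases and lower in 1 (9 and 1 after centring), beside 37.0% and 13.5% of all genes. ISG15 was at 7.84 and 6.75 FPKM, and MX1, the lower gene, at 3.64 and 0.699. Among other members, TRIM45 was at 0.0519 and 3.51 FPKM, TRIM62 at 0.190 and 3.41, TRIM13 at 0.621 and 7.22, TRIM8 at 49.9 and 7.79, TRIM47 at 19.6 and 8.50, TRIM7 at 6.33 and 1.10 and TRIM16L at 8.44 and 2.08.

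For the last 7 of these genes the U2OS-dTF value also lay more than 2-fold from that of mock-transfected U-2 OS. Set against the mock library from another table, U2OS-dTF had 11 of 37 members 2-fold higher (29.7%) and 14 lower (37.8%), beside 28.1% and 32.0% of all 12660 genes, although neither library contains PcTF. TRIM8 was at 1.45 FPKM in mock U-2 OS against 49.9 in U2OS-dTF, TRIM13 at 7.79 against 0.621, TRIM45 at 2.59 against 0.0519 (1 read), and TRIM22 at 13.8 against 5.49. On the log2 scale the derived U2OS-PcTF mean was nearer to the mock value than to the U2OS-dTF value for TRIM8, TRIM13, TRIM45, TRIM62 and TRIM7, and nearer to the U2OS-dTF value for TRIM47 and TRIM16L. Among the inducible genes, TRIM38 was at 10.8 FPKM in the mock against 2.31 in U2OS-dTF. The log2 ratio of the derived U2OS-PcTF mean over the mock was 0.07 for TRIM38, 0.09 for TRIM5, -0.31 for TRIM22 and 1.29 for TRIM56. Of 17 interferon pathway genes, 11 were 2-fold lower in U2OS-dTF than in the mock and 1 higher. Line, treatment and library cannot be told apart in this comparison.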

How the data were processed

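RNA-seq was analysed from the 4 expression tables that the authors deposited, in FPKM per gene. Per the labels and methods, reads were aligned to hg19 (GRCh37) with TopHat2 2.1.0 and FPKM were computed with Cuffdiff. The PcTF column of the stable-line table is, per the labels, the authors' pooled value of 3 libraries. The tables also hold the authors' fold changes, p-values and q-values, which were not used. One library, U-2 OS transfected with a dTF plasmid, was not analysed here. The labels assign none of the value columns to it, and they disagree on its treatment.

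Members and gene lists were chosen with earlier results of these data known. Every inducible and constitutive gene, and every other member at 1 FPKM or more in a column, is named with values. Context genes are limited to 6 per list, those with the largest ratio in U-2 OS among genes past the filter. The exceptions are IFNB1, MX1, and UBE2W and SETDB1 in K562, named after their values were seen.

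Ratios were log2 of FPKM plus 0.1. Members counted had 1 FPKM or more in either library, and 2-fold was the threshold. Reads per library were recovered from 575 single-exon genes, where low values (up to 6 reads) fell within 3% of whole numbers after scaling by Cuffdiff's default effective length (fragments of 200 bases, SD 80). Reads per gene used the GENCODE canonical transcript length, and intervals are exact binomial (95%) and cover counting error only. For TRIM56 that length, 10910 bases, exceeded the whole deposited interval (chr7:100728786-100733889), so its reads are overstated and its intervals too narrow. The same may hold for TRIM24, TRIM38 and TRIM44, whose annotation runs past the end of the deposited interval. The mean of the 2 stable libraries is (3 times the pool minus the transfected library) divided by 2. This rests on 325 genes whose pooled value times 3 equals the transfected value within 0.01%, and 10 of 16049 genes whose pooled value times 3 was over 1% below the transfected value were left out of it. The depth of the pool is unknown. The kit named in the labels does not mark strand, so reads of overlapping genes (TRIM13 with KCNRG and DLEU2, TRIM14 with NANS, TRIM25 with DGKE, TRIM59 with SMC4, TRIM37 with PPM1E) cannot be told apart. Alternatives tried were other filters, pseudocounts, fold thresholds, centring, the inducible list without TRIM22, and the pool without the transfected library. The depth search, ratios and intervals were tested on simulated data. Python 3.11.15, pandas 2.3.3, numpy 2.4.6 and scipy 1.17.1 were used.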

Additional observations from a re-analysis of the deposited data

Results flagged for a closer look

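In all, 2 members passed 2-fold in opposite directions in different lines; the difference itself was not tested, since each line has 1 library per condition. TRIM56 had a log2 ratio of PcTF over mock of 1.08 in U-2 OS and -2.03 in K562. TRIM16L had a log2 ratio of 1.96 in U-2 OS, from about 3 and 15 reads, and -4.61 in K562, from about 59 and 2 reads.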

How the results depend on the processing

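Counts of members past the threshold depended most on the filter and the fold. In U-2 OS the 11 members became 20 with no filter and 6 with a filter of 5 FPKM, a pseudocount of 1 FPKM or a 3-fold threshold. In SK-N-SH the 5 became 8 with no filter, 2 with 5 FPKM, 12 at 1.5-fold and 1 at 3-fold. In K562 the 13 became 23, 7, 20 and 8 under the same 4 settings. In the pool over U2OS-dTF the 25 became 13 at 3-fold. The inducible median in K562 was -1.33 with no filter and -1.01 centred, and the pool's was 0.79 centred. The constitutive medians centred were 0.062 in SK-N-SH, 0.083 in K562 and 0.74 in the pool, and 0.76 in the pool without the transfected library. Without that library the TRIM22 ratio over U2OS-dTF was 1.01 in place of 2.56. The other 47 of 68 alternative values, among them the inducible medians without TRIM22, were within 1.5 times the reported count or, for ratios, moved by less than 50% of the counting interval's width. That interval was wide for TRIM22 in K562, whose ratio went from -2.64 to -0.80 with a pseudocount of 1 FPKM. None of the list medians or TRIM22 ratios changed sign, but the balance of higher and lower members did. In K562 7 higher and 6 lower became 6 and 9 centred, 7 and 8 with no pseudocount, 4 and 6 with a pseudocount of 1 FPKM, 2 and 5 at 5 FPKM and 3 and 5 at 3-fold, and the family median went from 0.05 to -0.24 centred. In the pool 19 and 6 became 10 and 9 centred. No paired analysis was possible because each transfected line has 1 library per condition and the stable U2OS-PcTF libraries are held as 1 pooled column. With 1 library per condition, biological and technical spread is unknown, and genes below 1 FPKM rest on few reads.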
